A study of Macaca mulatta with 9 samples.

Results

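GATA4, GATA6, NR5A1 and NR5A2 encode transcription factors of steroid-producing cells, and here they were followed in small antral follicles (SAFs) of rhesus macaques. They were taken as the probe sets of the expression array whose annotated symbol was exactly one of the 4 names, which gave 8 probe sets of 52865 on the array and 4 genes of 14132 with a symbol of their own. GATA4 and NR5A2 had 3 probe sets each, and GATA6 and NR5A1 had 1 each.

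The study used young adult females in 3 groups of 3 biological replicates, all sampled in the early follicular phase, at or near menses. The WSD+T females ate a Western-style diet and had chronically elevated androgen, the WSD females ate that diet alone, and the control females ate a standard diet. Per the labels, each of the 9 samples was a pool of SAFs from 1 ovary (3.7 ± 0.3 SAFs per ovary, the kind of error not stated), so a value averages follicles and cell types. SAFs are growing follicles in which a fluid-filled cavity, the antrum, has opened, and their whole content was lysed, from the follicle wall and granulosa cells to the oocyte with its cumulus.

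GATA4 and GATA6 are zinc finger factors that bind the same short DNA motif and are found in granulosa and theca cells. NR5A1 (steroidogenic factor 1) and NR5A2 (liver receptor homolog 1) are nuclear receptors that also share a DNA motif and act on promoters of steroidogenic genes. In the mouse ovary Nr5a2 is found in granulosa cells, while Nr5a1 is found in theca and interstitial cells as well. GATA and NR5A factors act together on the promoters of STAR, CYP19A1 and the inhibin genes, and both families take part in granulosa cell growth and in ovulation.

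Signals are MAS5 values per probe set, each array scaled by the authors to 1 common mean. Median signals ran from 21.6 to 23.5 in WSD+T, from 15.9 to 21.4 in WSD and from 20.6 to 23.7 in control. The 3 WSD+T arrays lay closer to each other than any others, with r from 0.985 to 0.993 over the tested probe sets, while no other pair of arrays exceeded 0.961. Replicates 1 and 3 were the closest pair (0.993). They are labelled as separate biological replicates with sample codes of their own, and whether they share a female or an extract was not tested. If they did, WSD+T would have fewer than 3 independent samples and its p-values would be too small. Fold changes are log2 of signal plus 16, which understates the change of dim probe sets, and tests are limma's, adjusted by Benjamini-Hochberg over all 26383 probe sets above the filter on low values (a mean log2 value of 5.22, or a signal of about 21.2). All 8 probe sets passed that filter, NR5A1 narrowly with a mean log2 value of 5.25. In bulk follicles, fewer cells of a type and less RNA per cell cannot be told apart.

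All 8 probe sets had lower mean signals in both diet groups than in control, and on the log2 scale the dimmest NR5A2 probe set differed most in both. NR5A2 in WSD+T had 68.9%, 42.5% and 35.2% of the control mean on its brightest, middle and dimmest probe set, and in WSD 63.6%, 54.5% and 49.2%. GATA4 in WSD+T had 63.3%, 55.1% and 40.3% of it, and in WSD 52.2%, 49.7% and 44.5%. GATA6 had 78.3% of it in WSD+T and 79.1% in WSD, and NR5A1 had 50.1% and 55.0%. Only 1 of the 8 passed limma's test in WSD against control, the dimmest GATA4 probe set, where 14.5% of all tested probe sets were called (9.68% lower and 4.78% higher). None passed in WSD+T against control (1.97% of all called, 1.43% lower and 0.542% higher) or in WSD+T against WSD (2.99% called, 0.948% lower and 2.04% higher). At an unadjusted p under 0.05, 4 of the 8 were past in WSD+T against control (19.2% of all), 6 in WSD against control (31.1% of all) and 0 in WSD+T against WSD (20.9% of all).

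**Figure D1:**
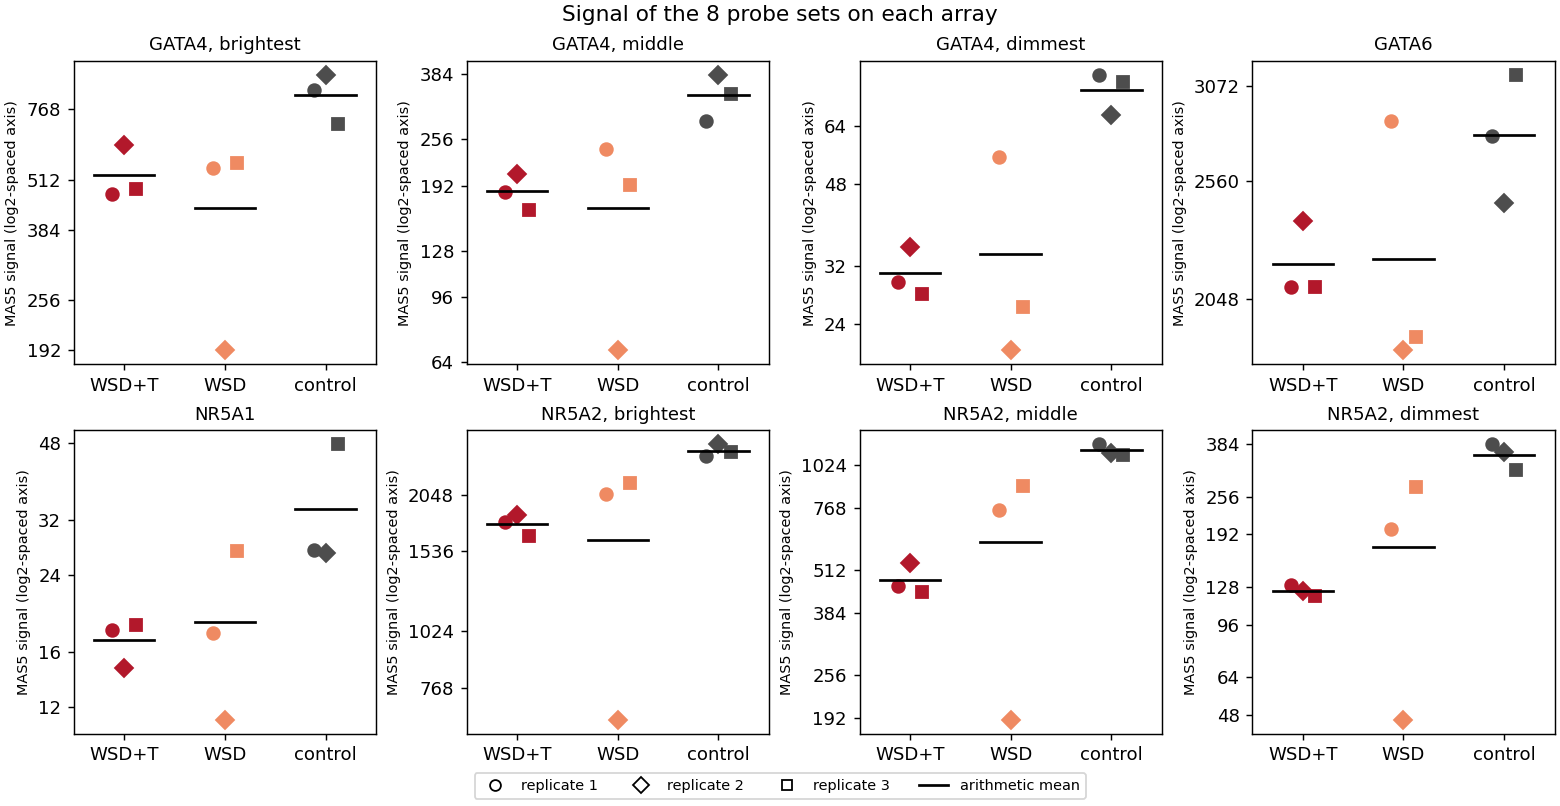
MAS5 signal (y axes, log2-spaced, a separate scale per panel) of the 8 probe sets in WSD+T, WSD and control follicles, with 1 symbol per array and a line at the arithmetic mean of 3 arrays. WSD replicate 2 (diamond) is the lowest array in all 8 panels, and the WSD+T arrays lie below the control arrays in every panel.

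GATA4 is needed for normal follicle development in mice and binds promoters of steroidogenic and inhibin genes. Its brightest probe set, MmugDNA.16680.1.S1_at, had signals of 471, 625 and 485 in WSD+T replicates 1 to 3, of 548, 192 and 564 in WSD and of 857, 937 and 704 in control. Every array of both diet groups lay below every control array, and WSD replicate 2 was far below the other 2 WSD arrays. The change was -0.65 in WSD+T against control (SE 0.37, limma's adjusted p = 0.373) and -1.05 in WSD against control (SE 0.37, adjusted p = 0.0916), so neither passed.

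On the other GATA4 probe sets every array of both diet groups again lay below every control array. The middle one, MmuSTS.4821.1.S1_at, had 184, 207 and 165 in WSD+T, 241, 68.8 and 192 in WSD and 287, 382 and 340.4 in control. Neither its change of -0.80 in WSD+T (adjusted p = 0.272) nor that of -1.08 in WSD (adjusted p = 0.0807) passed limma's threshold.

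The dimmest GATA4 probe set, MmugDNA.6375.1.S1_at, had 29.6, 35.3 and 27.9 in WSD+T, 55.0, 21.1 and 26.1 in WSD and 82.6, 67.7 and 79.8 in control. In WSD+T it differed from control by -0.98 (SE 0.23, adjusted p = 0.0736), and in WSD against control it fell by 0.94 on the log2 scale (SE 0.23, adjusted p = 0.0311). The WSD call held in 2 of the 9 fits that left out 1 array, without WSD replicate 1 or 3, and the adjusted p ranged from 0.0101 to 0.0857. The change ranged from -1.23 to -0.76 in these fits. Leaving out a WSD+T array does not alter the WSD change itself, yet the call was lost there too. Those fits have 1 array fewer and called 9.3% to 10.7% of all tested probe sets. In the F test over the 3 groups the same probe set was the only one of the 8 to pass (adjusted p = 0.0403, where 11.7% of all tested probe sets passed).

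GATA6, whose role overlaps in part with that of GATA4 in mouse granulosa cells, had the smallest difference from control on the log2 scale of the 8 probe sets. Its probe set, MmuSTS.4822.1.S1_at, had signals of 2094, 2376 and 2095 in WSD+T, of 2873, 1856 and 1902 in WSD and of 2793, 2456 and 3136 in control. WSD replicate 1 lay inside the control range, so WSD and control overlapped, while the 3 WSD+T arrays lay just below the lowest control array. The change was -0.35 in WSD+T against control (95% confidence interval -0.79 to 0.10, adjusted p = 0.367) and -0.36 in WSD against control (-0.80 to 0.08, adjusted p = 0.243). These intervals reach from a small increase to decreases as large as those fitted for the brightest GATA4 and NR5A2 probe sets in WSD+T.

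Whether GATA4 changed more than GATA6 was looked at through the difference between their brightest probe sets on each array, a comparison chosen after the values were seen. The log2 difference, GATA4 minus GATA6, averaged -2.03 ± 0.11 in WSD+T, -2.42 ± 0.72 in WSD and -1.73 ± 0.38 in control (SD, n = 3). The groups overlapped, and the shift did not pass in WSD+T against control (-0.30, exact two-sided permutation p = 0.4) or in WSD against control (-0.69, exact p = 0.2). With 3 arrays against 3 the smallest p is 0.1, and 21 such differences between probe sets were computed (Benjamini-Hochberg adjusted p = 0.618 and 0.42), so an unequal change of the 2 GATA genes was not shown.

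NR5A2 drives CYP19A1 and other steroidogenic genes in granulosa cells, and mice lacking it there do not ovulate. The brightest probe set, MmugDNA.8461.1.S1_at, had 1779, 1850.5 and 1660 in WSD+T, 2058, 653 and 2168 in WSD and 2485, 2643 and 2544 in control. All 6 arrays of the diet groups lay below all control arrays, with 1763 ± 96.4 in WSD+T, 1626 ± 844 in WSD and 2557 ± 79.7 in control (SD, n = 3 each). The middle probe set, MmugDNA.9427.1.S1_at, had 459, 535 and 444 in WSD+T, 759.6, 190.03 and 893 in WSD and 1174, 1112 and 1094 in control.

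The dimmest NR5A2 probe set, MmugDNA.17889.1.S1_at, had 129.7, 124 and 119 in WSD+T, 199, 46.2 and 275 in WSD and 383, 362 and 315 in control. On this and the middle probe set, WSD replicates 1 and 3 lay between WSD+T and control and WSD replicate 2 lay below both. With the 3 groups in 1 fit, none of the NR5A2 changes passed: -0.53, -1.21 and -1.39 in WSD+T (adjusted p = 0.500, 0.222 and 0.172) and -0.83, -1.12 and -1.23 in WSD (adjusted p = 0.190, 0.150 and 0.122), from the brightest to the dimmest probe set.

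**Figure D2:**
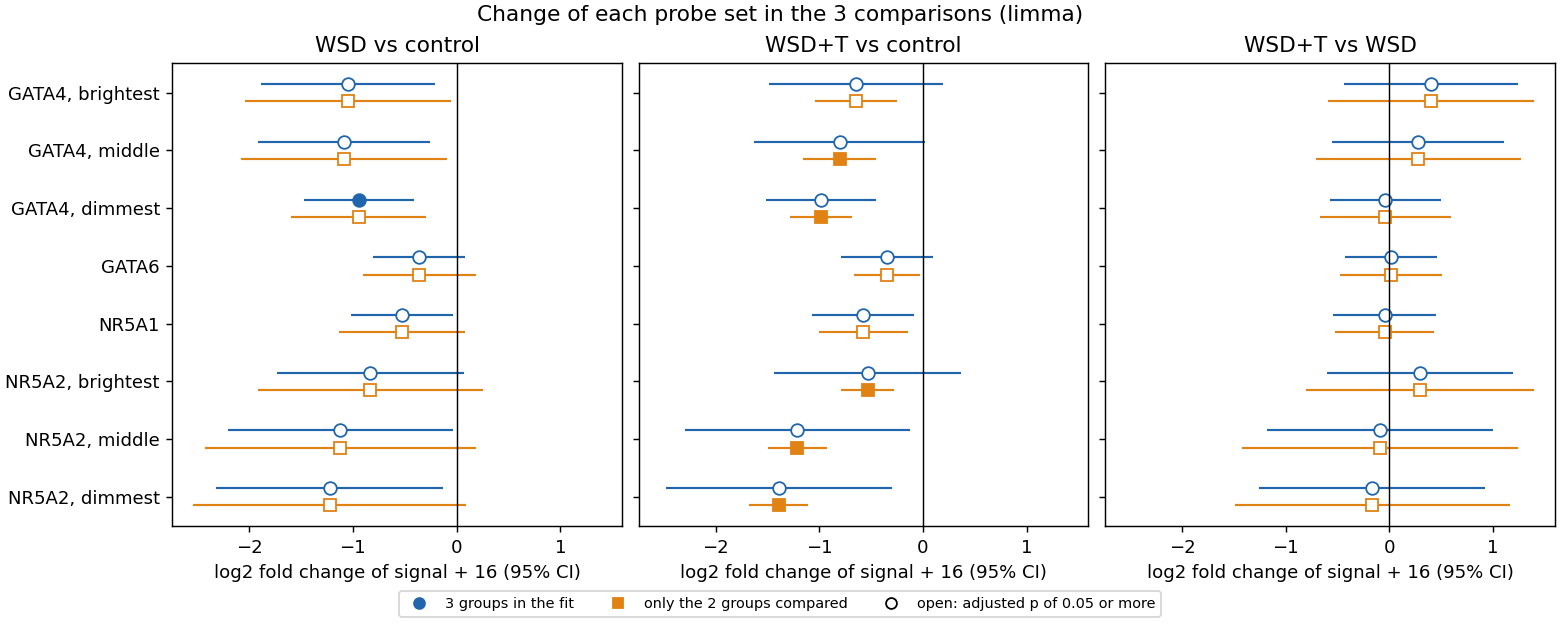
Log2 fold change of signal + 16 (x axes, bars are 95% confidence intervals) for the 8 probe sets in 3 comparisons, from the fit to all 3 groups (circles) and from fits to the 2 groups compared (squares), filled where limma's adjusted p is under 0.05. In WSD+T against control 5 squares and no circles are filled, and all 8 points of each fit lie left of 0.

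The spread that the common fit shares between groups came mostly from WSD: the variance among replicates, averaged over tested probe sets, was 0.0411 in WSD+T, 0.330 in WSD and 0.152 in control. Fitted on the WSD+T and control arrays alone, 5 of the 8 probe sets passed as lower, where 12.4% of all tested probe sets were called and 5.44% were lower. They were the 3 of NR5A2 (adjusted p = 0.0267, 0.00658 and 0.00534, brightest to dimmest) and the middle and dimmest of GATA4 (adjusted p = 0.0211 and 0.00942), while the brightest GATA4 probe set narrowly missed (0.0503). The dimmest NR5A2 change of -1.39 had a 95% confidence interval of -1.68 to -1.11 there, against -2.48 to -0.30 with the WSD arrays in the fit. The common fit without WSD replicate 2 also called 5 of the 8 (6% of all called, 3.48% lower). With WSD+T replicates 1 and 3 averaged into 1 sample, a setting chosen after the data were seen that also leaves 1 sample fewer, 1 of the 8 passed in the fit to 2 groups, the dimmest of NR5A2 (-1.39, adjusted p = 0.0496, with 0.22% of all called). The sizes changed little, to -0.58, -0.77 and -0.95 for GATA4 and -0.52 and -1.17 for the other NR5A2 probe sets.

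For WSD against control the fit to 2 groups called none of the 8 (lowest adjusted p = 0.102, for the dimmest GATA4 probe set, with 3.26% of all probe sets called and 2.18% lower). Leaving out WSD replicate 3 from the common fit called 5 of the 8 (25% of all called, 14% lower), and leaving out WSD replicate 2 called none (13.6% of all called, 8.71% lower). In that last fit the brightest NR5A2 probe set differed from control by -0.27 and the brightest GATA4 probe set by -0.56, in place of -0.83 and -1.05. WSD replicate 2 thus carried a large part of the mean difference of WSD, and the other 2 WSD arrays were nearer to control for both genes. All 8 probe sets had every WSD+T array below every control array, as did 18% of all tested probe sets (36.8% did not overlap in either direction). In WSD 6 of the 8 did so, as did 20.2% of all (30.8% in either direction). The comparisons of WSD and of WSD+T with control use the same control arrays, and probe sets of 1 gene measure the same RNA, so these counts are not independent of each other.

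The NR5A2 probe sets were also set against each other within each array, a comparison chosen after the values were seen. On the log2 scale the dimmest minus the brightest was -3.62, -3.74 and -3.63 in WSD+T, -3.27, -3.43 and -2.91 in WSD and -2.65, -2.81 and -2.95 in control. The WSD+T arrays lay below all others, and the shift from control was -0.86 (exact two-sided permutation p = 0.1, the smallest that 3 against 3 arrays allow, adjusted p = 0.42). The middle minus the brightest shifted by -0.68 in WSD+T against control, again with no overlap (-1.85 ± 0.08 in WSD+T and -1.17 ± 0.09 in control, SD, n = 3 each, exact p = 0.1, adjusted p = 0.42). In WSD+T against WSD the shifts were -0.46 and -0.39, also without overlap (exact p = 0.1 for each, adjusted p = 0.42), although with a pseudocount of 1 the first of them had an exact p of 0.3. In WSD against control the middle minus the brightest shifted by -0.29, also without overlap (exact p = 0.1, adjusted p = 0.42). The dimmest minus the brightest shifted by -0.40 there, with overlap (exact p = 0.2, adjusted p = 0.42). None of these shifts passed after adjustment, and which NR5A2 transcripts each probe set reads was not analysed here.

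**Figure D3:**
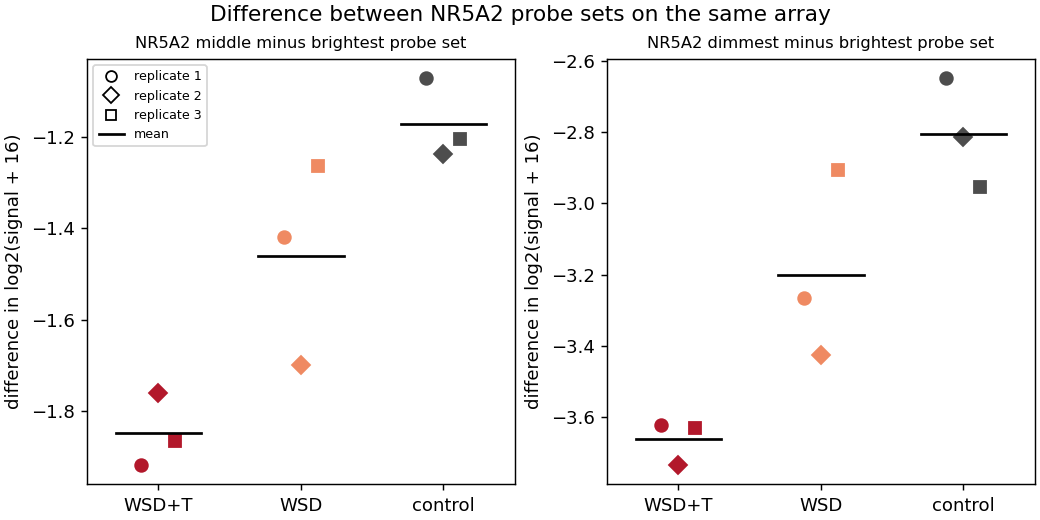
Difference in log2(signal + 16) between the middle and the brightest NR5A2 probe set (left) and between the dimmest and the brightest (right) on each of 9 arrays, with a line at the mean of each group of 3. In both panels the WSD+T arrays lie below all WSD and control arrays.

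NR5A1, the master regulator of gonadal and adrenal steroidogenic cells, was dim on these arrays. Its only probe set, MmugDNA.16245.1.S1_at, had 18.0, 14.7 and 18.5 in WSD+T, 17.7, 11.2 and 27.3 in WSD and 27.4, 27.0 and 47.8 in control. The WSD+T arrays lay below the control arrays and the WSD arrays overlapped them, and control replicate 3 was well above the other 8 arrays. Neither the change of -0.57 in WSD+T (SE 0.22, adjusted p = 0.205) nor that of -0.53 in WSD (SE 0.22, adjusted p = 0.137) passed. Of the 9 signals 5 lay under the filter's signal of 21.2, and with a pseudocount of 1 the changes were -0.91 and -0.86, and again did not pass.

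The comparison of WSD+T with WSD asks what chronically elevated androgen adds on top of the diet. None of the 8 probe sets passed, and the groups overlapped for all 8, where 28.5% of all tested probe sets did not overlap and 10.9% lay lower in WSD+T. The changes ran from -0.17 to 0.40, with 4 below 0 and a median of -0.01, against a median of 0.09 over all tested probe sets. The widest of the 95% confidence intervals, for the dimmest NR5A2 probe set, ran from -1.26 to 0.92, so changes within that range were not excluded. Without WSD replicate 2 all 8 were lower in WSD+T, and the middle and dimmest NR5A2 probe sets passed (-0.77 and -0.84, adjusted p = 0.0326 and 0.0362, where 5.88% of all were called and 2.12% lower).

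The mean scores of granulosa and of theca markers were lower on every array of the diet groups than on every control array, although few single markers passed. Granulosa markers (9 tested genes, among them INHA, AMH and CYP19A1, which are also known targets of these factors) had a mean centred log2 score of -0.61 to -0.45 in WSD+T, of -0.80 to 0.19 in WSD and of 0.50 to 0.89 in control, and the lowest array was WSD replicate 2. Of these 9 genes 2 fell in WSD+T against control (INHA and INHBB), where 1.73% of all genes were called lower. In WSD against control the same 2 fell and INHBA rose, where 10.7% of all genes were called lower and 4.74% higher. SERPINE2 changed by -0.09 in each diet group and did not pass. The summed signal of all 10 granulosa markers on the array was 7905 to 9188 in WSD+T, 7066 to 10833 in WSD and 10843 to 15117 in control. Macrophage and myeloid markers (12 on the array, 11 tested, none listed at 0) summed to 15395 to 17071 in WSD+T, 931 to 22854 in WSD and 1950 to 9741 in control, and WSD replicate 2 was the highest and WSD replicate 3 the lowest array. None of the 11 tested myeloid markers passed limma's test in any comparison.

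Theca markers (8 on the array, all tested) had a score of -0.07 to 0.12 in WSD+T, of -0.52 to -0.06 in WSD and of 0.21 to 0.45 in control. Of the 8, 2 fell in WSD+T against control (HSD3B2 and PTCH1, the hedgehog receptor), where 1.73% of all genes were called lower. In WSD against control 3 fell (these and CYP17A1), where 10.7% of all genes were called lower. None passed as higher. The PTCH1 call in WSD+T (limma's adjusted p = 0.0460) held in 2 of the 9 fits that left out 1 array (highest 0.209 without WSD+T replicate 1). The list's median was 0.01 in WSD+T and -0.59 in WSD, against -0.01 and -0.08 over all genes. APOD, TCF21, NR2F2 and COL1A2 were higher in WSD+T than in control without passing (1.16, 0.84, 0.20 and 0.07). STAR, HSD3B2 and CYP17A1 are also counted among the steroidogenic targets below. The summed theca signals overlapped, with 9502 to 10289 in WSD+T, 6825 to 10730.0 in WSD and 8898 to 10057 in control. The part of these 3 marker lists in the lower GATA4 and NR5A2 signals was not tested.

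**Figure D4:**
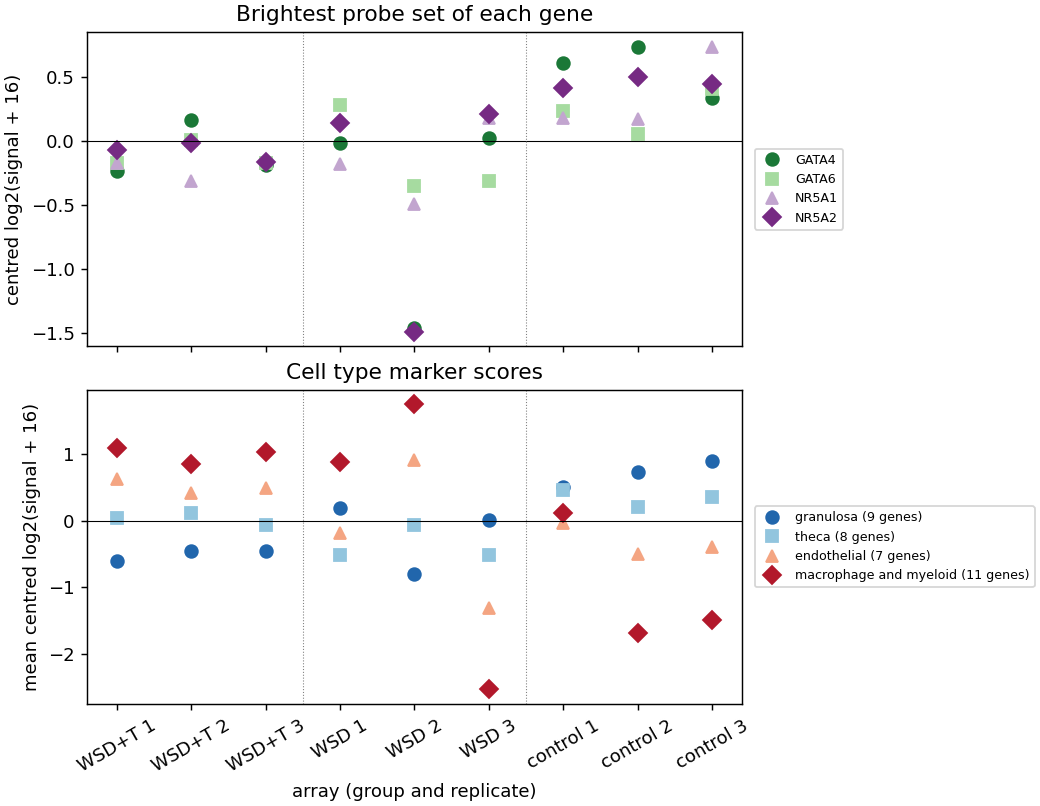
Log2(signal + 16) of the brightest probe set of each gene, centred on its mean over the 9 arrays (top), and mean centred log2 values of 4 marker lists (bottom), with 1 column per array. WSD replicate 2 has the lowest GATA4, NR5A2 and granulosa values and the highest myeloid score (1.747), and the control arrays have the highest granulosa scores.

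Oocyte markers were summed in the same way as the granulosa and theca markers. Oocyte markers (8 on the array, 7 tested) summed to 1191 to 1364 in WSD+T, 1008 to 1492 in WSD and 512 to 1074 in control. Markers of granulosa cells, theca and oocyte thus had signal on every array, while FSHR, FOXL2, LHCGR and CYP11A1 were not analysed here. Of the 7 tested oocyte markers, FIGLA rose in WSD+T against control (1.93, limma's adjusted p = 0.0380), where 0.62% of all genes were called higher. ZP4 rose in WSD against control (1.04, adjusted p = 0.0310), where 4.74% were. Each call held in 4 of the 9 fits that left out 1 array (highest 0.174 for FIGLA and 0.0941 for ZP4).

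Steroidogenic genes that GATA and NR5A factors are known to act on formed a list of 24 genes, of which 15 were tested. In WSD+T against control 1 fell, none rose and 14 did not pass, in WSD against control 2 fell, none rose and 13 did not pass, and in WSD+T against WSD 1 fell and 14 did not pass. The medians were -0.08, -0.02 and 0.02, against -0.01, -0.08 and 0.09 over all 10002 genes, where 1.73%, 10.7% and 0.79% of genes were called lower. HSD3B2, which makes progesterone from pregnenolone, accounted for all but 1 of these decreases, with 191 ± 17.3 in WSD+T, 463 ± 48.0 in WSD and 976 ± 145 in control (SD, n = 3 each). It fell in WSD+T against WSD by 1.21 on the log2 scale (adjusted p = 0.0182, held in 5 of 9 fits that left out 1 array, highest 0.122 without WSD+T replicate 1, and 0.0518 with only these 2 groups). Against control it fell by 2.26 in WSD+T (adjusted p = 0.00642, 0.0807 without WSD+T replicate 3) and by 1.04 in WSD (adjusted p = 0.00683). Any link of HSD3B2 to the GATA and NR5A signals was not tested.

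CYP17A1, the androgen-producing enzyme of theca cells, was the other decrease in WSD (203 ± 81.0, against 657 ± 127 in control, limma's adjusted p = 0.00715). In WSD+T it had 340 ± 46.3, and every array (291 to 383) lay below every control array (559 to 800). That change of -0.91 did not pass (adjusted p = 0.116). STAR, which brings cholesterol into mitochondria and has GATA and NR5A sites in its promoter in other mammals, had 2465, 2310.3 and 2377 in WSD+T, 3081, 4082 and 2416 in WSD and 2788, 1853 and 2896 in control. The STAR groups overlapped, and its highest value was on WSD replicate 2 (adjusted p = 0.938 in WSD+T and 0.349 in WSD, against control). That array also had the lowest GATA4, NR5A2 and granulosa values and the highest myeloid score. The relation of STAR to these was not tested. CYP19A1, the aromatase, had 44.0, 38.1 and 73.9 in WSD+T, 524, 139 and 154 in WSD and 185, 587 and 306 in control. Every WSD+T array was below the others, but the change of -2.35 against control did not pass (SE 0.54, adjusted p = 0.0650).

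Among gonadal hormone and receptor genes, of which 10 of 19 were tested, 2 fell and none rose in WSD+T against control. In WSD against control 3 fell and 1 rose. None passed in WSD+T against WSD, with 2 at limma's unadjusted p under 0.05 (20.9% of all tested probe sets). The list's medians were -0.57, -0.83 and 0.13 in these comparisons. Over all genes 1.73% were called lower and 0.62% higher in WSD+T against control, and 10.7% lower and 4.74% higher in WSD against control. INHA, the inhibin alpha subunit and a gene with GATA and NR5A sites in its promoter in rodents, had 280.1, 343 and 393 in WSD+T, 336, 306 and 728 in WSD and 957, 2605 and 2535 in control. It fell in both diet groups (-2.41, adjusted p = 0.0356, and -2.09, adjusted p = 0.0173), which held in 3 and 6 of the 9 fits that left out 1 array (highest 0.175 without WSD+T replicate 1 and 0.0617 without control replicate 3). INHBB, the inhibin beta-B subunit, had 21.0, 19.5 and 21.5 in WSD+T, 29.9, 5.70 and 12.7 in WSD and 106, 148 and 158 in control. It fell too (-2.05 in WSD+T and -2.31 in WSD, adjusted p = 0.0152 and 0.00323). Its means in both diet groups (20.7 and 16.1) lay under the signal of the filter on low values, so the sizes of these decreases are uncertain. IHH, a granulosa cell signal to theca, fell in WSD (-4.28, limma's adjusted p = 0.0105). It had 25.4, 5.70 and 45.6 in WSD and 628, 956 and 627 in control. In WSD+T it had 13.0, 234 and 18.3, also below every control array, and did not pass (-3.56, adjusted p = 0.0540). The lowest IHH signals of both diet groups lay under the filter's signal, so the sizes of these changes are uncertain too. INHBB in WSD+T held in 5 of those 9 fits, with a highest adjusted p of 0.107 without WSD+T replicate 1. INHBA, the inhibin beta-A subunit, rose in WSD (0.51, adjusted p = 0.0448), a call that held in 1 of the 9 fits, with a highest adjusted p of 0.111 without control replicate 3. AMH, a granulosa cell hormone that restrains the recruitment of small follicles in mice, had 120 ± 38.0 in WSD+T, 160 ± 69.7 in WSD and 315 ± 81.0 in control and did not pass (adjusted p = 0.109 and 0.104 against control).

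Cofactors and repressors of GATA and NR5A factors had 14 of 25 genes tested, of which none passed limma's test in WSD+T against control or against WSD. At limma's unadjusted p under 0.05, 3 and 4 were past there, where 19.2% and 20.9% of all tested probe sets were. In WSD against control 2 fell and 1 rose, where 10.7% and 4.74% of all genes did, so these counts are near the background. LHX9, a LIM homeobox factor needed to form the embryonic gonad in mice, had 29.8, 28.4 and 25.9 in WSD+T, 12.7, 12.5 and 7.87 in WSD and 34.5, 31.2 and 50.1 in control, and fell in WSD (adjusted p = 0.00802) from signals near the filter. NCOR1, a nuclear receptor corepressor, also fell (-0.81, adjusted p = 0.0259), which held in 5 of the 9 fits that left out 1 array (highest 0.0848 without control replicate 2). NRIP1, a corepressor of nuclear receptors that is needed for ovulation in mice, rose in WSD (2222 ± 142, against 1563 ± 191 in control, 0.51, adjusted p = 0.0388), a call that held in 1 of those 9 fits (highest adjusted p = 0.117 without control replicate 2). NR0B1, a repressor of NR5A1, was under the filter, with 7.64 to 14.3 in WSD+T, 6.43 to 10.8 in WSD and 4.73 to 11.3 in control.

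Other transcription factors of steroidogenic cells had 30 of 37 genes tested. None passed limma's test in WSD+T against control or against WSD. At limma's unadjusted p under 0.05, 10 were past in each, where 19.2% and 20.9% of all tested probe sets were. In WSD against control 4 rose and 2 fell (4.74% and 10.7% of all genes). Those with the smallest p were the cyclic AMP-responsive CREM (1.45, adjusted p = 0.00634), the nuclear receptor RORA (1.88, adjusted p = 0.00903), the AP-1 subunit FOS (-2.11, adjusted p = 0.0108) and CEBPD (0.995, adjusted p = 0.0111), and each passed in all 9 fits that left out 1 array. Upstream kinases and signals, with 12 of 19 tested, had no gene past limma's threshold in any of the 3 comparisons. At limma's unadjusted p under 0.05, 1 was past in WSD+T against control (19.2% of all tested probe sets). In WSD against control 1 was past (31.1% of all), and in WSD+T against WSD 2 were (20.9% of all). Fitted on WSD and control alone, 4 of the 6 called transcription factors missed the threshold, FOS, CEBPD, RUNX1 and SMAD4 (adjusted p = 0.0550, 0.0572, 0.0587 and 0.0709; the last 2 were named after their values were seen), as did LHX9, NCOR1, NRIP1, INHA and INHBA (0.0503 to 0.142).

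Of the other GATA family genes, 2 of 8 were tested, of which none passed against control and 1 rose in WSD+T against WSD (2.06% of all genes were called higher), GATA2, a factor of blood and endothelial cells. Its signal was 199.4, 180.1 and 233 in WSD+T, 68.1, 74.1 and 29.9 in WSD and 110.2, 74.0 and 90.1 in control, so every WSD+T array was above every other array. It rose in WSD+T against WSD (1.64, SE 0.26, adjusted p = 0.0279), which held in 5 of the 9 fits that left out 1 array (highest 0.141 without WSD+T replicate 1) and not in the fit to these 2 groups (0.0662), and against control the change was 1.04 (adjusted p = 0.0872). TRPS1, an atypical GATA-type repressor, had 338, 307 and 350.2 in WSD+T, 143, 398 and 115 in WSD and 179, 137 and 86.4 in control and did not pass (1.26 against control, adjusted p = 0.153). Endothelial markers had a score of 0.41 to 0.62 in WSD+T, of -1.31 to 0.91 in WSD and of -0.50 to -0.04 in control, and their part in GATA2 was not tested. GATA3 was under the filter on average, with 6.85 to 11.03 in WSD+T, 2.53 to 10.7 in WSD and 4.63 to 7.89 in control.

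All pairs of the 8 probe sets had a positive correlation over the 9 arrays, which share the groups and the low WSD replicate 2. Its strength varied, and the weakest pair, GATA6 with NR5A1, had Pearson's r = 0.597 and Spearman's rho = 0.483. The brightest GATA4 and NR5A2 probe sets had Pearson's r = 0.964 and Spearman's rho = 0.917, while GATA6 had r = 0.646 with GATA4 and 0.640 with NR5A2. Over all 10001 other genes, by their brightest probe set, the patterns most like GATA4 were those of SCUBE3, THUMPD2 and FAM78A (r = 0.989, 0.9748 and 0.974), and those most like NR5A2 were FHOD3, DIAPH3 and DOK5 (r = 0.992, 0.986 and 0.985). TESMIN, LOC716644 and PLCB3 were closest to GATA6 (r = 0.967, 0.956 and 0.943), and DLK1, a non-canonical Notch ligand, ERGIC1 and VCPIP1 were closest to NR5A1 (r = 0.984, 0.974 and 0.968). With the 2 arrays left out that lay farthest from each gene's median these 12 correlations were 0.898 to 0.963. GATA4 and NR5A2 had 179 and 166 genes with r above 0.9, and GATA6 and NR5A1 had 17 and 39.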

How the data were processed

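What the authors deposited is 1 linear intensity for each probe set and array, from 1-colour Affymetrix rhesus macaque arrays (total RNA, NuGEN amplification, biotin label, per the labels). According to the submitters' processing notes they were made with MAS5, whose version and detection calls are not given in the sources used here, nor is a genome build. The mean without the outer 2% of probe sets was 200.01 on all 9 arrays, so the authors had scaled them to 1 mean.

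Symbols came from the array's annotation, and 99 control probe sets were left out. Probe sets with a mean log2(signal + 16) at or above the median of the rest were tested with limma 3.58.1 in R 4.3.3 (lmFit, eBayes; a common fit of all 9 arrays with 3 group means, 6 residual and 2.69 prior degrees of freedom; threshold 0.05), and the code was tested on simulated data first. The number of arrays limits the precision. Genes of lists were represented by their brightest tested probe set. Names followed a rule: all member probe sets, up to 4 called genes per list and comparison by smallest p, 12 genes whatever their p where tested, and the 3 most alike genes per member by Pearson's r. Members and lists were chosen with earlier results of these data known. CYP11A1, FSHR, LHCGR, FOXL2 and ZFPM2 were not analysed here. Figures used matplotlib 3.10.9 in Python 3.11.15.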

Additional observations from a re-analysis of the deposited data

How the results depend on the processing

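The changes of the 4 genes were recomputed under up to 12 planned settings, by leaving out each of 9 arrays and, chosen after seeing the data, with WSD+T replicates 1 and 3 averaged. Counts and the other probe sets had no average over a gene's probe sets, list genes only the fits to 2 groups and without 1 array, and differences between probe sets only a pseudocount of 1. All 8 probe sets stayed lower in both diet groups than in control under every setting that tested them. The scalings moved no GATA or NR5A call against control.

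In WSD against control the brightest GATA4 probe set passed with the gene's probe sets averaged (-1.02, adjusted p = 0.0463) and in 1 fit that left out an array (-1.30 to -0.56, without WSD replicate 3), as did NR5A1 (-0.70 to -0.34). The dimmest GATA4 probe set did not pass with the replicate block (adjusted p = 0.0530), array weights per group (0.0588), 2 groups only (0.102) or WSD+T replicates averaged (0.0566). Same-numbered replicates did not deviate together (residual r -0.30 to 0.19), and with their number as a replicate block none of the 8 passed in any comparison. In WSD+T against control array weights called 3 of the 8 (12.4% of all called, 5.98% lower). NR5A2's brightest probe set passed with 2 groups only (-0.53) and, leaving out arrays (-0.57 to -0.49), without WSD replicate 2. In WSD+T against WSD small differences changed sign. Median centring, which moved all probe sets by -0.13, gave -0.12 for GATA6 in place of 0.01. Leaving out 1 array gave ranges of -0.087 to 0.65 for GATA4, -0.10 to 0.22 for GATA6, -0.21 to 0.12 for NR5A1 and -0.26 to 0.59 for NR5A2, and for the other probe sets -0.20 to 0.59 and -0.22 to 0.24 (GATA4) and -0.77 to 0.30 and -0.84 to 0.28 (NR5A2). The cause was not tested.

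Counts over all probe sets moved more. WSD against control had 3817 calls (1262 higher, 2555 lower), 2398 with the filter at the 75th percentile, 2220 with the replicate block, 1367 with array weights, 859 with 2 groups only, 2536 with WSD+T replicates averaged and 1756 to 6605 leaving out 1 array. WSD+T against control had 520, 3 with the block, 3267 with weights, 3265 with 2 groups only, 0 in limma with replicates averaged (3072 at an unadjusted p under 0.05; 58 adjusted in the fit to 2 groups) and 0 to 1770 leaving out 1 array (0 without WSD+T replicate 3, with 3162 unadjusted). WSD+T against WSD had 789 (539 higher, 250 lower), 1 with the block, 186 with weights, 9 with 2 groups only, 0 with replicates averaged (3956 unadjusted, or 3322 with 2 groups) and 0 to 1551 leaving out 1 (0 without WSD+T replicate 1, with 3802 unadjusted). The F test had 3097, 978 with the block, 1028 averaged and 868 to 5848. Scaling moved the split of higher and lower calls to 304 and 324 (quantile), 204 and 377 (median centring) and 321 and 411 (cyclic loess) in WSD+T against WSD, and to 1492 and 1961, 1548 and 1679, and 1691 and 1790 in WSD against control. NR5A1 lies near the lowest signals tested.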
